A study of Drosophila melanogaster with 18 samples.

Results

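Kinesins and dyneins are the motor proteins that walk along microtubules, and their genes were followed across a change of diet in Drosophila melanogaster. Probes were taken where the platform annotation gave a single symbol that was nod, Kap3, Dlic, ncd, Khc, Klc or sw, or that began with Klp and a digit or with Dhc. This rule found 11 probes of 11 genes among 5620 probes, and 10 of them had a value on all 6 slides and are described in full. Klp98A, an endosome-associated kinesin gene, had 5 spots on 4 slides and fell outside. No probe used here carried the single symbol Khc or sw. The genes nod, Kap3 and Dlic had been picked for their values in these data, so their diet ratios are given as a description with no test.

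Total RNA of animals switched to banana was hybridised in one channel of a 2-colour slide against RNA of animals on the cornmeal control diet in the other. There were 6 slides with 3 sets of replicate spots each, joined by the labels into 3 dye-flip pairs: slides 2 and 3 (pair 1), 30 and 29 (pair 2), and 28 and 25 (pair 3). Slides 2, 30 and 28 carried banana RNA in channel 1 and slides 3, 29 and 25 carried cornmeal RNA there. The labels give no strain, stage, sex, tissue or time on the diet, and do not say that pairs came from separate cultures. A p-value for the diet ratio, or for the part that stays with the channel, thus reflects only how far these pairs spread. That spread may be technical. For a difference between pairs, the p-value instead sets that spread against the difference between the slides of a pair. In such whole RNA, fewer cells of a type and less RNA per cell cannot be told apart.

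Values were taken as log2 ratios. Each slide was averaged over its spot sets and centred on its median, and slides with cornmeal RNA in channel 1 were turned in sign. Which channel is the numerator of the deposited ratios is not stated. A positive ratio therefore means a higher level on banana if channel 1 is the numerator and on cornmeal otherwise, so that signs are given here without a direction between the diets. Across the 4723 rows with values on all 6 slides, the slide values before turning correlated negatively within each pair. The r was -0.212, -0.388 and -0.093 in pairs 1, 2 and 3, and slides of one orientation had r between -0.125 and 0.274. The number of slides limits the precision of every ratio.

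As background, plus-end kinesins and minus-end dynein share the same tracks. In dividing cells they build the spindle, slide and depolymerise its microtubules and move chromosomes, and in the oocyte they organise a spindle without centrosomes. In non-dividing cells conventional kinesin, kinesin-II and cytoplasmic dynein carry organelles, RNA and ciliary cargo. Non-motor subunits such as Kap3, Klc and Dlic join the motors to what they carry.

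Among the 10 genes, nod was positive and Kap3 was negative on all 6 slides, and Dlic stood far from 0 in pair 2 alone. The other 7 genes had both signs among their slides. Of all 4723 rows with values on all 6 slides, 6.61% had 1 sign on all of them (3.94% positive, 2.67% negative). As that contrast was used to pick nod and Kap3, nothing is read from the count of 2 in 10. In all 3 pairs 1 sign was found for nod, Kap3 and Klp68D, 3 of the 10 genes, against 30.6% of all rows. Nothing is read from this count either, as nod and Kap3 were picked on that ratio. Among the 7 other genes Klp68D was the only one. The median ratio was 0.04 over the 10 motor genes and 0.00 over all rows, and the median size of the ratio was 0.23 and 0.12. Without the 3 picked genes the median of the motor genes was 0.00 and their median size 0.10.

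**Figure D1:**
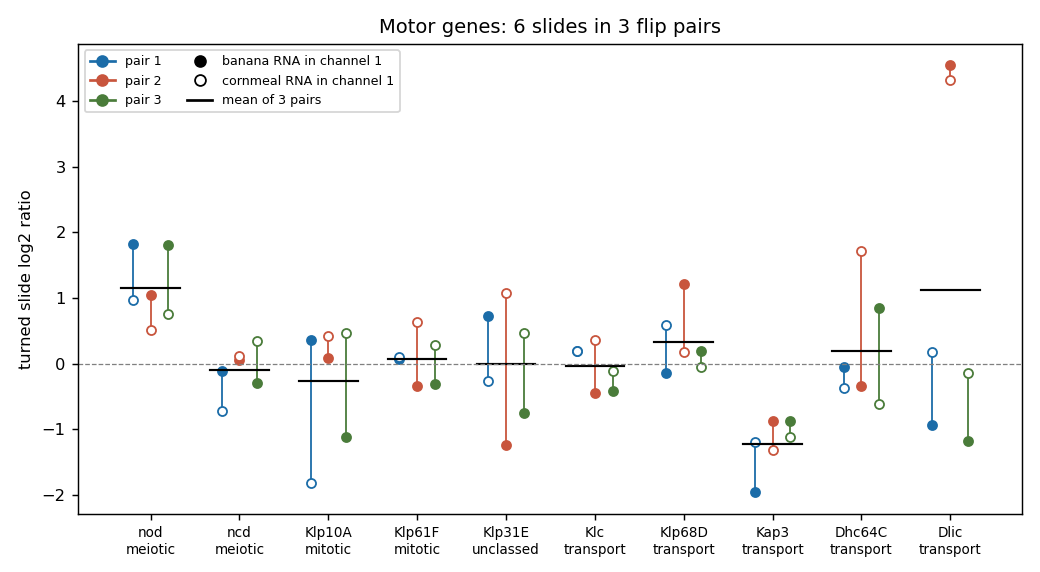
Turned log2 ratio (vertical axis) of the 10 motor genes (horizontal axis, with their class) on 6 slides; filled points are slides with banana RNA in channel 1, open points those with cornmeal RNA there, a coloured line joins the slides of a flip pair, and the black bar is the mean of 3 pairs. All points of nod lie above 0 and all of Kap3 below, while Dlic lies above 4 in pair 2 and between -1.18 and 0.17 in the other pairs.

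The meiotic motors were represented by nod and ncd. The gene nod (Entrez 32107) encodes a chromosome-bound kinesin-like protein that holds chromosomes without crossovers on the female meiotic spindle. Its turned ratios were 1.82 on slide 2, 0.97 on slide 3, 1.05 on slide 30, 0.51 on slide 29, 1.81 on slide 28 and 0.75 on slide 25. All 17 of its measured spots were positive once each spot column was centred on its median, from 0.39 to 2.10. Nothing is read from this count, since spots are repeats on the same slides and nod was picked for its ratio. The spots of a slide differed by a pooled SD of 0.16, against a median of 0.22 over 5433 probes, so that nod was measured evenly within slides.

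The pair ratios of nod were 1.39, 0.78 and 1.28, and the mean was 1.15 ± 0.328 (SD, n = 3), a 2.22-fold difference. Within every pair the slide with banana RNA in channel 1 had the larger ratio. The part that did not turn with the dyes was 0.41 ± 0.132 (SD, n = 3), with a 95% interval of 0.13 to 0.68 from limma. It did not pass over all rows (limma adjusted p = 0.516).

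The gene ncd encodes a minus-end kinesin that focuses the poles of the oocyte spindle and also works in mitosis. It had turned ratios of -0.12 and -0.73 in pair 1, 0.05 and 0.12 in pair 2 and -0.29 and 0.35 in pair 3. Its mean was -0.10 ± 0.279 (SD, n = 3), with a 95% interval of -0.50 to 0.29 (limma adjusted p = 0.89). The ratio of nod exceeded that of ncd on 6 of 6 slides, by 0.39 to 2.11, which is a description since nod was picked for its ratio.

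**Figure D2:**
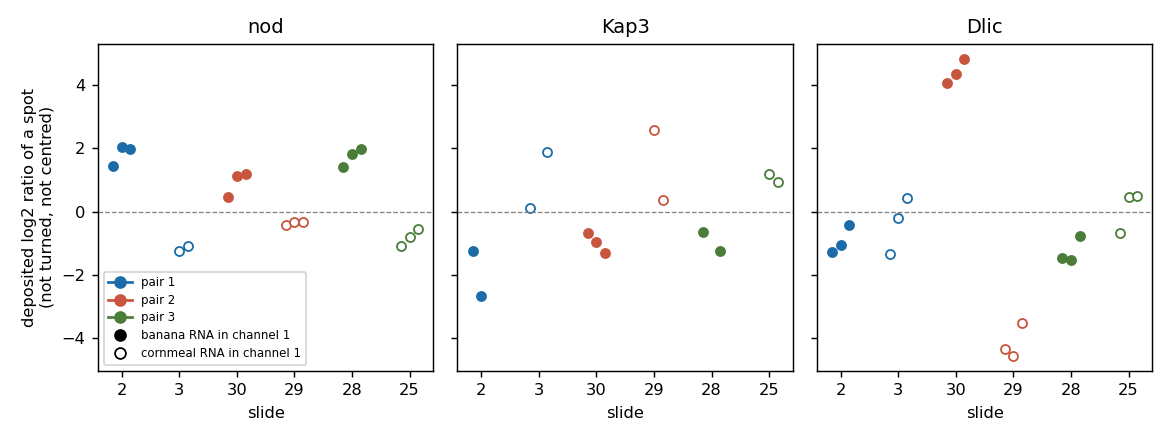
Deposited log2 ratio of each spot (vertical axis, neither turned nor centred) on the 6 slides (horizontal axis) for nod, Kap3 and Dlic; colours mark the pairs, and filled and open points mark banana and cornmeal RNA in channel 1. The values of nod and Kap3 change sign between the slides of every pair, and those of Dlic run from 4.07 to 4.84 on slide 30 and from -4.58 to -3.53 on slide 29.

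Transport motors held the other picked genes. Kap3 (Entrez 32071) encodes the non-motor subunit of heterotrimeric kinesin-II, which carries cargo in neurons and builds sensory cilia. Its turned ratios were -1.96 on slide 2, -1.20 on slide 3, -0.88 on slide 30, -1.32 on slide 29, -0.88 on slide 28 and -1.12 on slide 25. Every slide was low, and the pair ratios were -1.58, -1.10 and -0.999. The mean was -1.23 ± 0.311 (SD, n = 3), a 2.34-fold difference.

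Kap3 was measured less evenly than nod. It had 13 of 18 spots, the fewest of the 10 genes, and a pooled SD of 0.93 between the spots of a slide. All 13 were negative after centring of the spot columns, from -2.62 to -0.12. As with nod, nothing is read from this count, since spots are repeats and Kap3 was picked for its ratio. When the spot columns were centred and only spot sets measured on both slides of a pair were kept, an alternative chosen after seeing the data, its mean ratio was -1.04.

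The motor subunit measured for the same complex, Klp68D, did not have the ratio of Kap3. Klp68D had turned ratios of -0.15 and 0.59 in pair 1, 1.22 and 0.18 in pair 2 and 0.20 and -0.05 in pair 3. Its mean was 0.33 ± 0.327 (SD, n = 3), with a 95% interval of -0.11 to 0.77 (limma adjusted p = 0.672). The value of 1.22 on slide 30 rested in part on 1 spot at 2.47 among 0.24 and 0.59. The ratio of Kap3 lay below that of Klp68D on 6 of 6 slides, with a difference of -1.56 ± 0.42 over pairs (SD, n = 3), which again is a description.

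Dlic (Entrez 32057) encodes the light intermediate chain of cytoplasmic dynein, through which the motor holds adaptors and cargo. Its turned ratios were -0.93 on slide 2, 0.17 on slide 3, 4.55 on slide 30, 4.32 on slide 29, -1.18 on slide 28 and -0.15 on slide 25. Slides 30 and 29 stood apart from the other 4 with no overlap, and their 6 spots lay between 3.78 and 4.81 after centring of the spot columns. With a pooled SD of 0.34 between the spots of a slide and a gap of 0.23 between the slides of pair 2, this ratio was repeated both within and between those slides.

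The pair ratios of Dlic were -0.38, 4.43 and -0.67, which correspond to differences of 1.30-fold, 21.6-fold and 1.59-fold in size. The mean of 1.13 ± 2.87 (SD, n = 3) describes none of the pairs, and without pair 2 it was -0.52. Dlic had been picked for its pair ratios, so the shares that follow are a description. A ratio at least as large as that of Dlic in pair 2 was found for 5 of the 4723 rows, or 0.106%, Dlic included. A ratio over 1 in size with 1 sign on both slides of pair 2 and under 1 in size in pairs 1 and 3 was found for 59 rows, or 1.25%.

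The heavy chain Dhc64C, the force-producing subunit of cytoplasmic dynein, had no such value in pair 2. Its turned ratios were -0.05 and -0.37 in pair 1, -0.35 and 1.71 in pair 2 and 0.85 and -0.62 in pair 3. Its mean was 0.20 ± 0.451 (SD, n = 3), with a 95% interval of -0.36 to 0.75 (limma adjusted p = 0.84). The mean was 0.43 with the median of the spot sets and -0.05 without pair 2. The spots of a slide differed by a pooled SD of 1.37, the next largest after that of Klp10A. In pair 2 the ratio of Dlic exceeded that of Dhc64C by 3.75, and in pairs 1 and 3 it was lower by 0.17 and 0.78. These differences too are a description, since Dlic was picked for its pair ratios.

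**Figure D3:**
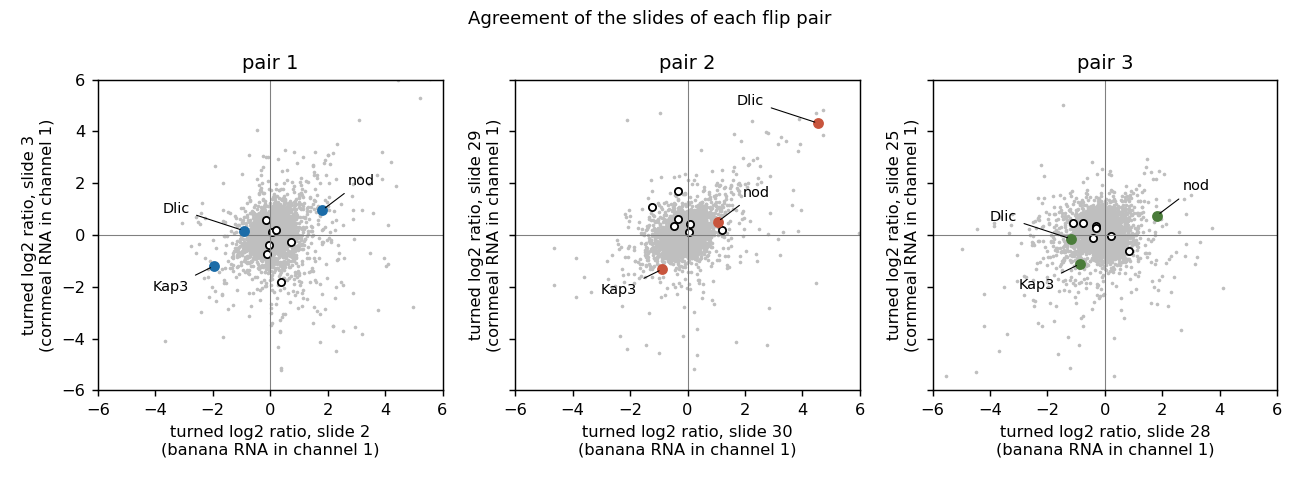
Turned log2 ratio on the slide with banana RNA in channel 1 (horizontal axis) against that on the slide with cornmeal RNA in channel 1 (vertical axis) for each flip pair; grey points are all rows, black circles the 7 other motor genes, and coloured points nod, Kap3 and Dlic. The axes end at 6 in size, which leaves out 13 rows; nod stays in the upper right and Kap3 in the lower left quadrant of every panel, and Dlic reaches the far upper right in pair 2.

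Klc, the light chain by which conventional kinesin takes up cargo, lay near 0. It had turned ratios of 0.19 and 0.19 in pair 1, -0.45 and 0.36 in pair 2 and -0.42 and -0.11 in pair 3. The mean was -0.04 ± 0.227 (SD, n = 3), with a 95% interval of -0.40 to 0.31. The mean ratios of nod and Kap3 lie outside the intervals of all 7 genes that had not been picked, Klc included. This is a description, since nod and Kap3 were picked for their ratios and the intervals reflect only the spread between pairs. The 18 spots of Klc differed within slides by a pooled SD of 0.19.

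The mitotic motors differed in how well they were measured. Klp61F, a bipolar kinesin that slides spindle microtubules apart, averaged 0.07 ± 0.082 (SD, n = 3), with a 95% interval of -0.20 to 0.34 and slides from -0.34 to 0.63. Klp10A, a kinesin that depolymerises microtubules at spindle poles, averaged -0.26 ± 0.494 (SD, n = 3), with a 95% interval of -0.86 to 0.33 and slides from -1.81 to 0.47. The pooled SD between the spots of a slide was 0.16 for Klp61F and 1.64 for Klp10A, the largest of the 10 genes. For Klp61F the slides of pairs 2 and 3 with banana RNA in channel 1 were negative and their partners positive, while the slides of pair 1 were at 0.08 and 0.10. Its channel effect of -0.27 did not pass, with a 95% interval of -0.60 to 0.07 (limma adjusted p = 0.528).

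Klp31E, a kinesin-like gene not placed in a class, averaged 0.00 ± 0.198 (SD, n = 3), with turned slide values between -1.24 and 1.07 and a pooled spot SD of 1.35. In each of its pairs the slides had opposite signs. Klp98A had deposited ratios of 1.02 and 3.29 on slide 2, 0.33 on slide 3, 6.25 on slide 29 and 1.40 on slide 25, with no value on slides 30 and 28. No pair other than pair 1 had both slides, and no diet ratio is given for it.

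The whole table was fitted with limma for the diet ratio, and 0 of 4723 rows (0%) passed an adjusted p of 0.05, with 384 rows, or 8.13%, at an unadjusted p under 0.05. The 7 motor genes that had not been picked had limma adjusted p between 0.672 and 0.999. The part of the ratio that stays with the channel had not been used to pick any gene. It passed the limma adjusted threshold for 0 of the 10 motor genes and 0 of all rows (0%), with 443 rows, or 9.38%, at an unadjusted p under 0.05. The channel effects of the 10 genes ran from -0.42 in Klp31E to 0.41 in nod. A difference between pairs beyond that between the slides of a pair, tested with limma, passed for 11 rows (0.233%), with 439 rows, or 9.29%, at an unadjusted p under 0.05, and for 0 of the 7 motor genes that had not been picked, whose adjusted p ran from 0.859 to 0.996.

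The SD between pairs had a median of 0.32 over the 10 motor genes and 0.28 over the 7 that had not been picked, against 0.22 over all rows. It was smallest in Klp61F, at 0.08, and largest in Dlic, at 2.87, which is 13.1 times the median of all rows. By the size of the mean ratio Kap3 ranked 35, nod 49 and Dlic 54 among 4723 rows, and Klp68D followed at 775. Kap3, nod and Dlic had been picked for their values, so their ranks are a description. The mean of Dlic describes none of its pairs.

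The named genes whose 6 turned slide values lay nearest those of the picked genes were found by the root mean square difference over the 6 slides. For Kap3 they were CG9312, at a difference of 0.20, CG7298, at 0.30, and CG10912, at 0.37. Their mean ratios were -1.14, -1.16 and -1.23. For nod they were CG13671, at 0.46, the lipase gene mag, at 0.55, and the acyl-CoA oxidase gene Acox57D-p, at 0.66.

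For Dlic the nearest were the cytochrome P450 gene Cyp4c3, at 0.73, bond, at 0.84, and CG7724, at 0.85. Their pair 2 ratios were 4.59, 3.52 and 4.78. In pair 1 they were -0.54, -0.77 and 0.88, and in pair 3 -0.49, -0.34 and -0.10. These rows were chosen for their likeness to Dlic, so their values describe them and support nothing about it.

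The 3 picked genes and Klp10A lie on the same chromosome in the RefSeq gene order of assembly Release 6, which the rule did not use, and the other 7 genes do not. From Klp10A to nod the table lists 64 genes, with 10 genes between Klp10A and Dlic, 12 between Dlic and Kap3 and 38 between Kap3 and nod. Of these 64 genes, 15 were measured on all 6 slides. Their median ratio was 0.02, and 4 of them had 1 sign on all 6 slides, nod and Kap3 included. Without the 3 picked genes this was 2 of 12 genes, a small count beside the 6.61% of all rows, and nothing is read from it.

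The nearest measured neighbours did not carry the ratios of the picked genes, which is a description. Only Gapvd1 and pkm were directly next to their gene. Genes not among the measured ones lay between for the others, 2 each for Ran and CG1394, 5 for CG1737 and 3 for CG11696. Beside Dlic, Ran had a pair 2 ratio of 0.03 and CG1394 one of -0.29. Beside Kap3, Gapvd1 averaged 0.33 ± 0.249 and CG1737 -0.29 ± 0.364 (SD, n = 3 each). Beside nod, pkm averaged -0.02 ± 0.34, and CG11696 averaged -1.06 ± 0.212 (SD, n = 3 each), opposite in sign to nod.

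Genes that work with the motors were given from lists, chosen with earlier results of these data known. Over 9 lists 41 different genes were measured on all 6 slides, and with limma 0 of them passed the adjusted threshold for the diet ratio, the channel effect or the difference between pairs. Their median ratio was 0.00. Of the 41 genes 1 was positive on all 6 slides and 0 were negative, against 3.94% and 2.67% of all rows. The 1 gene was hook, a dynein adaptor gene, at 0.17 ± 0.111 (SD, n = 3).

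In the dynein machinery the 7 light chain and regulator genes had a median of -0.02 and ran from -0.41 to 0.47. BicD, which links dynein to RNA and vesicle cargo, had the lowest mean of these, with pair ratios of 0.04, -1.24 and -0.03, and was thus low in the pair in which Dlic was high. The 4 dynactin genes, of the complex that activates dynein, had a median of -0.01 and ran from -0.15 to 0.07. The pair 2 ratios of these 11 genes ran from -1.24 to 0.29, far from that of Dlic, which is a description since Dlic was picked for its pair ratios.

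Among kinesin partners, 3 other kinesins had a median of 0.06 and 5 cargo adaptors a median of 0.07. The 3 intraflagellar transport genes, whose products travel with kinesin-II in cilia, had a median of -0.03, with Oseg1 at -0.12, IFT43 at -0.03 and Oseg4 at 0.24. The lowest mean of these 11 genes was thus -0.12, beside -1.23 for Kap3. This is a description, since Kap3 was picked for its ratio, and only 3 of 16 listed intraflagellar transport genes were measured.

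On the spindle side, the 2 measured genes of female meiotic segregation were mtrm, a regulator of the polo kinase in oocytes, and c(3)G, of the synaptonemal complex. The first had 0.28 ± 0.09 and was positive on 5 of 6 slides, and the second had -0.10 ± 0.826 (SD, n = 3 each). The 8 mitotic spindle and checkpoint genes had a median of -0.03 and ran from -0.33 to 0.16. The 8 microtubule regulators had a median of -0.01, and the 1 tubulin gene measured, gammaTub37C, had -0.27 ± 0.169 (SD, n = 3).

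**Figure D4:**
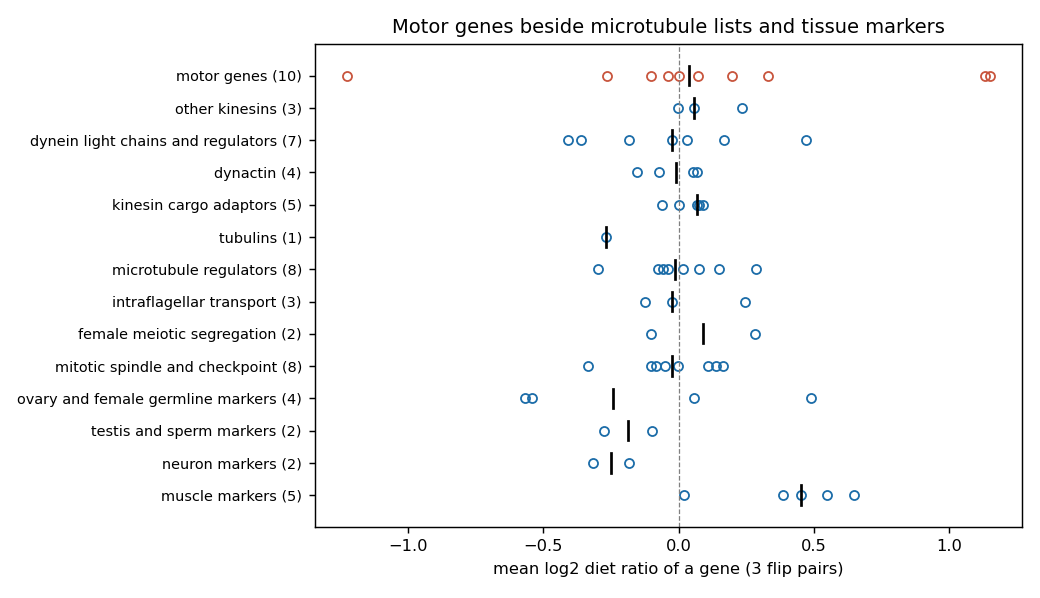
Mean log2 diet ratio of each gene over 3 flip pairs (horizontal axis) for the motor genes, 9 lists of genes that work with them and 4 lists of tissue markers (vertical axis, with the number of genes measured); black bars are medians. The ratios of nod, Dlic and Kap3 lie beyond those of every listed gene, which is a description since they were picked for their values. The mean of Dlic describes none of its pairs. The medians of the 9 lists lie between -0.27 and 0.09.

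Motor genes differ between tissues, so markers of several tissues were read in the same way. Of the 4 ovary and germline markers measured, grk was positive on all 6 slides, at 0.49 ± 0.047, while osk had -0.54 ± 0.627, bcd -0.57 ± 0.253 and the yolk protein gene Yp2 0.06 ± 0.204 (SD, n = 3 each). Their summed ratios were -1.72, -0.10 and 0.13 in pairs 1, 2 and 3. These 4 of the 20 listed markers had no common sign.

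The neuron marker nSyb was negative on all 6 slides, at -0.32 ± 0.134, and elav had -0.19 ± 0.207 (SD, n = 3 each). Summed over the 2 markers the ratios were -0.84, -0.36 and -0.31 in pairs 1, 2 and 3. The 2 testis markers had means of -0.27 and -0.10. Of the 5 muscle markers, bt and up were positive on all 6 slides. The means of the 5 ran from 0.02 in fln to 0.65 in Mf, with a median of 0.45. Their summed ratios were 1.96, 1.62 and 2.56 in pairs 1, 2 and 3. Over the 13 markers of all tissues 3 were positive and 1 was negative on all 6 slides, against 3.94% and 2.67% of all rows. Measured were 2 of 6 listed neuron markers, 2 of 21 testis, 5 of 11 muscle and 0 of 3 chordotonal neuron markers. The counts are small and the lists were chosen with earlier results known, so nothing is read from them. The part of these tissues in the ratios of nod and Kap3 was not tested.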

How the data were processed

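The table deposited by the authors held 18 columns of log2 ratios over 5620 probes, 1 column for each spot set of a slide, and all columns were used. The log base is an inference from the range of -16.02 to 13.21, and the base, the direction of the ratio, scanning, background correction and normalisation are not given in the sources used here. Columns were not centred, with medians between -0.688 and 0.354. Channel intensities were not used here, so the distance of spots from background is unknown, and a large ratio may rest on a channel with hardly any signal.

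A single gene was annotated for 4955 probes, and 4876 of these were found by gene identifier in the reference table. No build is named for the probes, so no coordinates are printed, and no gene or protein sequences were used here. Spot sets were averaged, slides centred on their median, probes of a gene with values on all 6 slides averaged (each motor gene had 1 probe), slides turned, and the slides of a pair averaged. Pairing comes from the flip partners named in the labels. The 3 pair ratios of 4723 rows, 4144 of them named genes, were tested against 0 in limma 3.58.1 (lmFit, eBayes) under R 4.3.3, two-sided, with Benjamini-Hochberg adjustment over all rows and a threshold of 0.05. Residual degrees of freedom were 2 and those of the prior 2.15. Channel effects were tested likewise without turning, and pair differences by an F test on 6 slides with terms for pair and orientation. These fits were tested on simulated data. Confidence intervals are at 95%. Plots were made in Python 3.11.15 with matplotlib 3.10.9.

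The motor genes and lists were chosen with earlier results of these data known. For nod and Kap3 the diet ratio and its spread between pairs, and for Dlic its ratios in the separate pairs, were treated as used in the choice. All motor genes with values on all 6 slides were named, with the 3 nearest named genes of each picked gene, list members with the largest ratio among those of 1 sign on all 6 slides, and a few list members and gene-order neighbours chosen after their values were seen.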

Additional observations from a re-analysis of the deposited data

Results flagged for a closer look

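Dlic had both slides of pair 2 positive and both of pair 3 negative, with a difference of 5.10 between the pairs. The same held for ncd, with pair 2 above pair 1 by 0.51, and for Klc, with pair 1 above pair 3 by 0.45. These 3 opposite signs were noted without a test of the difference; in the test over all rows ncd and Klc did not pass.

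Single spots lay apart from the others of their orientation in 4 genes, in terms of the gap to the nearest spot. They were Kap3 on slide 2 in spot set 2, at a deposited ratio of -2.68, Dhc64C on slide 29 in spot set 1, at -3.52, Klp31E on slide 2 in spot set 1, at 2.99, and Klp68D on slide 30 in spot set 2, at 2.47. In all 30 groups of slides or spots were examined, and chance would flag about 1 in 20 if values were independent. Spots are repeats on the same slides and their columns were not centred here, so the 4 flags are not judged against that rate.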

How the results depend on the processing

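The mean ratios of nod and Kap3 kept their sign under every alternative run for them. Without 1 pair, nod ranged from 1.03 to 1.34, Kap3 from -1.34 to -1.05 and Dlic from -0.52 to 2.03, with the change of sign in Dlic coming from the loss of pair 2. If the values had been turned before deposit, nod would stand at 0.41, Kap3 at -0.012 and Dlic at -0.32, and 0 motor genes would have 1 sign on all 6 slides. Of the 7 other genes, Dhc64C fell to -0.05 without pair 2, ncd moved to 0.06 without pair 1, Klc to 0.07 without pair 3 and Klp31E to -0.11 without pair 1, each a change of sign; Klp68D was 0.15 without pair 2, Klp10A -0.03 without pair 1 and -0.53 without pair 2, and Klp61F 0.04 without pair 2 and 0.12 without pair 3. Among rows with all 18 spots, which hold 3 motor genes and neither nod nor Kap3, that count was also 0.

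Over all rows the limma count for the diet ratio was 0 to 1 without 1 pair. It was 20 with the 6 slides as units and the flip pair as a replicate block. Kap3 was among these rows, but it had been picked for this ratio, so nothing is read from that. With no replicate block the count was 1, with no motor gene. Both slide fits count technical repeats as replicates, and the block had a correlation of -0.0882. The channel effect gave 2 rows with the median of spot sets, 2 without centring and 0 to 13 without 1 pair. The pair difference gave 28 rows with the median of spot sets, 88 among rows with all 18 spots, 5 with every probe as a row and 5 with robust eBayes. Dlic, whose pair ratios had been used to pick it, was in the first and the second of these counts, and among the 13 rows with spot columns centred, but not among the 11 of the fit reported.

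The cause of these changes was not tested. Signal over background is unknown for every spot.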
